A study of Homo sapiens with 12 samples.

Results

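miR-7 was followed through 12 small RNA libraries by its mature guide strand, hsa-miR-7-5p, and by hsa-miR-3529-3p, a second name that holds the same reads. The members were chosen by name, with the 3p arms of the hairpins mir-7-1 and mir-7-2 added where the count table lists them. miR-7 was selected on measured values: its high read count in cells given wild-type DROSHA and its rise over cells given an empty plasmid were known beforehand. These 2 names stand among 1286 mature names in the table, or 1277 after names with the same reads were merged.

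All cells were HCT116, a human colorectal carcinoma line, with the genotype DROSHA-KO, and all received the plasmid pXC-NLS-DG4. They differed in the second plasmid, which was the pCK empty plasmid (called empty here), pCK-DROSHA wild type, pCK-DROSHA_m4 or pCK-DROSHA_belt_deletion, with 3 libraries each. The labels state neither what m4 alters nor what DG4 codes for. Total RNA was size-selected at 19 to 24 nt before cloning, and the table holds between 132667 and 407461 reads per library.

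As background, most miRNAs start as a hairpin in a long primary transcript, which the nuclear RNase III enzyme DROSHA cuts together with DGCR8 before DICER releases the mature strands. The belt is a stretch of DROSHA that contacts the RNA in structures of that complex. miR-7 is an old, conserved miRNA best known from neurons and endocrine cells, where the circular RNA CDR1as binds it, and its reported targets include EGFR and IRS2. In humans it is encoded by several hairpins, one of which lies in HNRNPK, a widely expressed gene for an RNA-binding protein.

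Sequences were taken from RefSeq on GRCh38.p14, in which 1148 of the 1286 mature names were found. The mature strands are printed 5′ to 3′ with the seed, bases 2 to 8, in capitals, because they show which reads can be told apart.
hsa-miR-7-5p: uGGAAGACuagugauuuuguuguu
hsa-miR-3529-3p: aACAACAAaaucacuagucuucca
hsa-miR-7-1-3p: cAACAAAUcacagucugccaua
hsa-miR-7-2-3p: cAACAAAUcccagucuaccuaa

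The seed of miR-7-5p, GGAAGAC, belonged to 1 of the 2370 mature names with a sequence, which is miR-7-5p itself. At 24 nt, miR-7-5p sits at the upper edge of the size window of the libraries. miR-3529-3p is its exact reverse complement: both names describe the bases chr15:88611856-88611879, read from opposite strands. The 3p arms of mir-7-1 and mir-7-2 share their seed and 18 of 22 bases, and the changes from the first to the second, counted from the 5′ end, are A10C, G17A, A20U and U21A.

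The hairpins MIR7-2 and MIR7-3 are printed with miR-7-5p in capitals, since each carries the whole 24 nt strand and reads of it cannot be assigned to one of them.
MIR7-2: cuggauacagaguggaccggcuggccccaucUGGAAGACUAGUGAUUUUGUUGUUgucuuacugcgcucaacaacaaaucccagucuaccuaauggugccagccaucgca
MIR7-3: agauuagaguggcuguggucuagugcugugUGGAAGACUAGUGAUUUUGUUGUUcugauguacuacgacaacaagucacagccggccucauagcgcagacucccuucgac

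In the GENCODE 29 annotation, MIR7-1 lies at chr9:83969748-83969857 on the minus strand. It is inside HNRNPK, read in the same direction, and is intronic in 6 of the 7 transcripts that span it and exonic in 1. MIR7-2 lies at chr15:88611825-88611934 on the plus strand, where no other gene was annotated on it, and MIR3529 is on the minus strand of the same place. MIR7-3 lies at chr19:4770670-4770779 on the plus strand, in an intron of all 9 spanning transcripts of the lincRNA MIR7-3HG. Folded with RNAfold 2.7.2, MIR7-2 had a minimum free energy of -47.0 kcal/mol with 19 of the 24 bases of miR-7-5p paired. MIR7-3 had -38.0 kcal/mol with 18 of the 24 paired. Per base, 41.1% of 1560 RefSeq hairpins were less stable than MIR7-2 and 16.8% were less stable than MIR7-3. The sequences used here held no hairpin for MIR7-1, so it was neither printed nor folded.

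The table lists miR-7-5p 3 times, under mir-7-1, mir-7-2 and mir-7-3, and miR-3529-3p once. These 4 lines never differed by more than 3 reads in a library, so the same reads were counted in each. The line with the most reads, 28372 over the 12 libraries, was used for all levels. The same happened in other places: 9 pairs of names, miR-7-5p with miR-3529-3p among them, held the same reads. In all 8 of the pairs with both sequences known the names share a run of at least 15 reverse-complementary bases. Some of these pairs are by name the 5p and 3p arms of the same miRNA, and such a run alone does not show opposite strands. How the authors treated strand and reads with several matches is not given in the sources used here.

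The other arm was almost absent. miR-7-1-3p had 1 read in all, in wild type replicate 2, and miR-7-2-3p and miR-3529-5p have no line in the table. With wild type, 1 of 18549 reads (0.00539%, exact Clopper-Pearson 95% interval 0.000136% to 0.0300%) came from the 3p arm. The other groups had 0 of 1358 reads with empty, 0 of 3307 with m4 and 0 of 5159 with the belt deletion. The same exact interval reaches up to 0.271%, 0.111% and 0.0715% in them. These limits cover counting error only, since the libraries have no molecular identifiers. Over all libraries the minor arm of mir-7-1 made up 0.00352% of its reads, although the 5p reads are shared with the other hairpins. Among 60 other hairpins with both arms in the table and at least 1000 reads, copies with the same mature names counted once, the median was 0.868% and 30 were above 1%. The share was lower than for mir-7-1 in 1 of them, mir-320a. With a single 3p read, arm use could not be compared between groups.

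DROSHA acts on most hairpins at once, so libraries were scaled on miRNAs that mature without it (miR-484, the summed miR-320 family, and the mirtron-like miR-877, miR-1226 and miR-1224). Scaled reads are the counts divided by that library's size factor. With empty plasmid, replicates 1, 2 and 3 had 514, 430 and 414 reads of miR-7-5p, or 387, 299 and 275 scaled reads. With wild type they had 8796, 5302 and 4450 reads, or 10460, 9537 and 5015 scaled reads. All wild type libraries stood far above all empty libraries, and replicate 3 was the lowest of the wild type libraries. The means were 320 ± 58.8 with empty and 8337 ± 2914 with wild type (SD, n = 3). Cells without a DROSHA plasmid thus still held miR-7-5p, which ranked 15 to 18 among all mature miRNAs in those libraries. In each wild type library it ranked 5.

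The m4 libraries had 867, 1208 and 1232 reads, or 930, 1116 and 1576 scaled reads. m4 replicates 1 and 3 were the shallowest of the 12 libraries, with 132667 and 139200 reads in the table. The belt deletion libraries had 1832, 1515 and 1812 reads, or 1612, 1900 and 1546 scaled reads. Every m4 and belt deletion library lay above every empty library and below every wild type library. The mutants overlapped each other, because m4 replicate 3 was above belt deletion replicate 3. Their means were 1208 ± 333 with m4 and 1686 ± 188 with the belt deletion. The order of the levels was therefore wild type, then both mutants without separation by their spread, then empty.

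**Figure D1:**
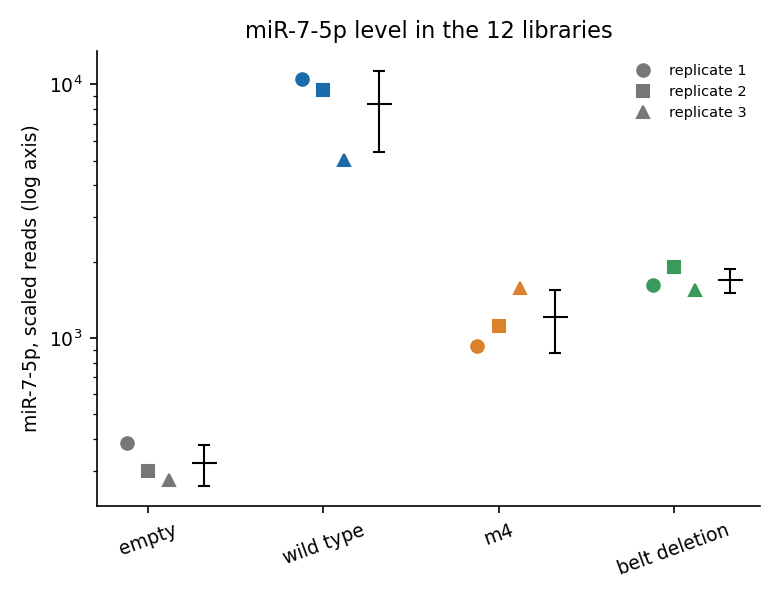
Scaled reads of miR-7-5p on a log axis for the 12 libraries, by plasmid; symbols mark the replicates and the black bar is the mean with its SD (n = 3). Wild type libraries lie between 5015 and 10460, both mutants between 930 and 1900, and empty between 275 and 387.

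Changes were estimated with edgeR's quasi-likelihood fit over the 310 miRNAs that passed its filter on low counts, and p-values were Benjamini-Hochberg adjusted over them. Nothing in the labels says that repeats came from separate cultures, and p-values here measure only the spread between these samples, which may be technical. For wild type against empty the log2 change of miR-7-5p was 4.70 (SE 0.375, 26.0-fold). No test is given, because this rise was part of why miR-7 was chosen. In that comparison 42.6% of the 310 miRNAs were called higher, and nothing is read from its place among them. miR-7-5p ranked 49 from the highest log2 change, and the median change was 0.72 over all tested miRNAs and 4.24 over the 131 others called higher. With TMM scaling (a trimmed mean over most miRNAs), DESeq2 size factors or total counts, the log2 change was smaller, at 3.80 to 4.02. Its distance to the median of all tested miRNAs was 3.94 to 3.99 in every scaling tried. A new scaling shifts all miRNAs by nearly the same amount, so this distance could hardly move and is no support for the rise.

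m4 raised miR-7-5p over empty. The log2 change was 1.91 (SE 0.334, 3.77-fold, adjusted p = 1.53e-06, edgeR), and miR-7-5p was 1 of 127 miRNAs called higher, or 41% of those tested. The median log2 change was 0.83 over all tested miRNAs and 2.04 over the 131 others called higher with wild type. miR-7-5p therefore stood above the median miRNA and near the middle of the miRNAs that rose with wild type. Its fold over empty depended on the scaling, from 2.34 with TMM to 5.73 with the sum of the reference reads.

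The belt deletion also raised miR-7-5p over empty. The log2 change was 2.40 (SE 0.339, 5.26-fold, adjusted p = 2.65e-09, edgeR), 1 of 133 miRNAs called higher, or 42.9% of those tested. Here the median was 0.73 over all tested miRNAs but 3.59 over the 131 others called higher with wild type, and 28 of those 131 had a smaller change than miR-7-5p. The fold fell to 3.07 with total counts and 3.11 with TMM scaling. Both mutant comparisons use the same empty libraries as the comparison for wild type.

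Against wild type, miR-7-5p was lower with either mutant. With m4 the log2 change was -2.79 (SE 0.343, 6.90-fold lower, adjusted p = 1.08e-10, edgeR), as 1 of 106 miRNAs called lower, or 34.2%. The median of the 131 others that rose with wild type was -1.96, and 29 of them had a more negative log2 change than miR-7-5p. With total counts the reduction was 3.24-fold, and it was still called.

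Over all tested miRNAs, a lower level with the belt deletion than with wild type was uncommon. That base includes miRNAs that did not rise with wild type, since 42.6% were called higher over empty with it. Only 29 of the 310 tested miRNAs, or 9.35%, were called lower, and miR-7-5p was one of them at -2.31 (SE 0.337, 4.95-fold lower, adjusted p = 1.23e-07, edgeR). Its log2 change was the 7th most negative of the 310, while the median was 0.04 over all tested miRNAs and -0.53 over the 131 others that rose with wild type. The call held under all 15 alternatives, with folds from 4.32 to 5.93. The high level with wild type that helped select miR-7 enters both comparisons against wild type.

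**Figure D2:**
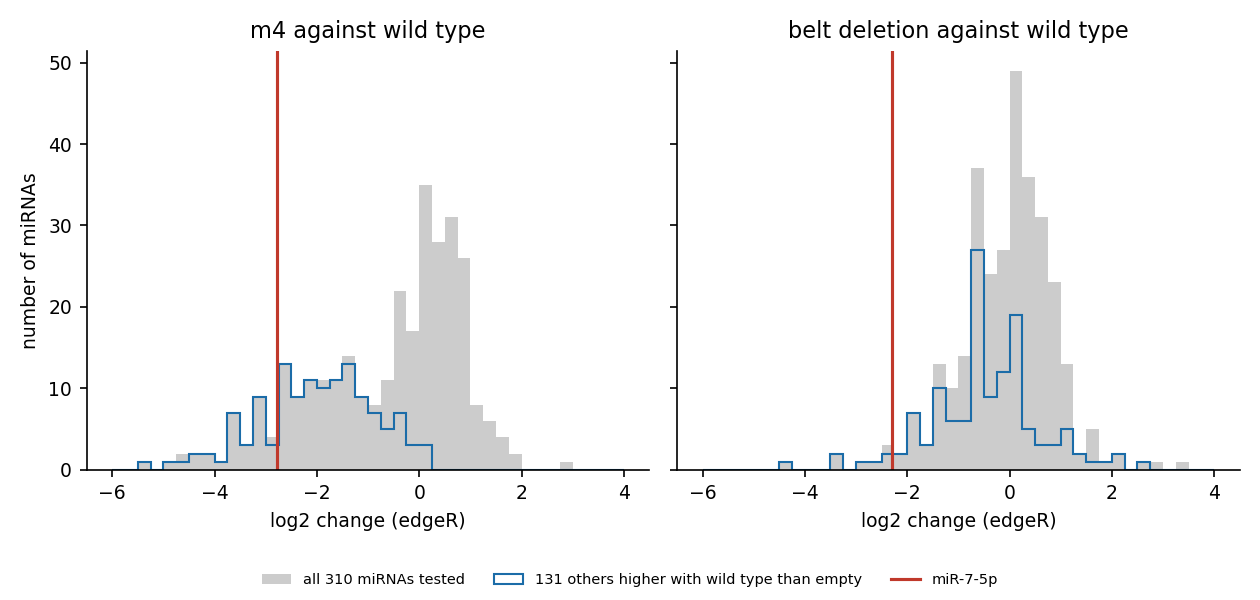
Numbers of miRNAs by their log2 change in edgeR for m4 against wild type (left) and the belt deletion against wild type (right); grey bars are all 310 tested miRNAs, the blue outline is the 131 others called higher with wild type than with empty, and the red line is miR-7-5p. The line lies inside the outline at -2.79 for m4 and toward its lower end at -2.31 for the belt deletion.

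The rise over empty that each mutant regained was set as a percent of the rise with wild type. miR-7-5p regained 11.1% with m4, where the other 131 miRNAs had a median of 20.8% and 35 of them regained less. It regained 17.0% with the belt deletion, where the others had a median of 66.4% (quartiles 43.2% and 107%) and 7 of them regained less. The rise with wild type, the divisor here, helped select miR-7 and also picked the 131 others, so these places are a description. As a share of the whole wild type level, miR-7-5p reached 14.5% with m4 and 20.2% with the belt deletion.

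Between the mutants no difference was called. The belt deletion against m4 gave a log2 change of 0.48 (SE 0.322, 95% interval from that SE -0.15 to 1.11, adjusted p = 0.335, edgeR). The interval reaches from just below the m4 level to more than 2-fold above it, so the result does not show that the mutants act alike on miR-7. In this comparison 25.8% of the tested miRNAs were called higher with the belt deletion, and the median of the 131 others was 1.37. The direction depended on the scaling: with total counts the log2 change was -0.54 (adjusted p = 0.0868, edgeR), when the median of all tested miRNAs was at -0.86.

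**Figure D3:**
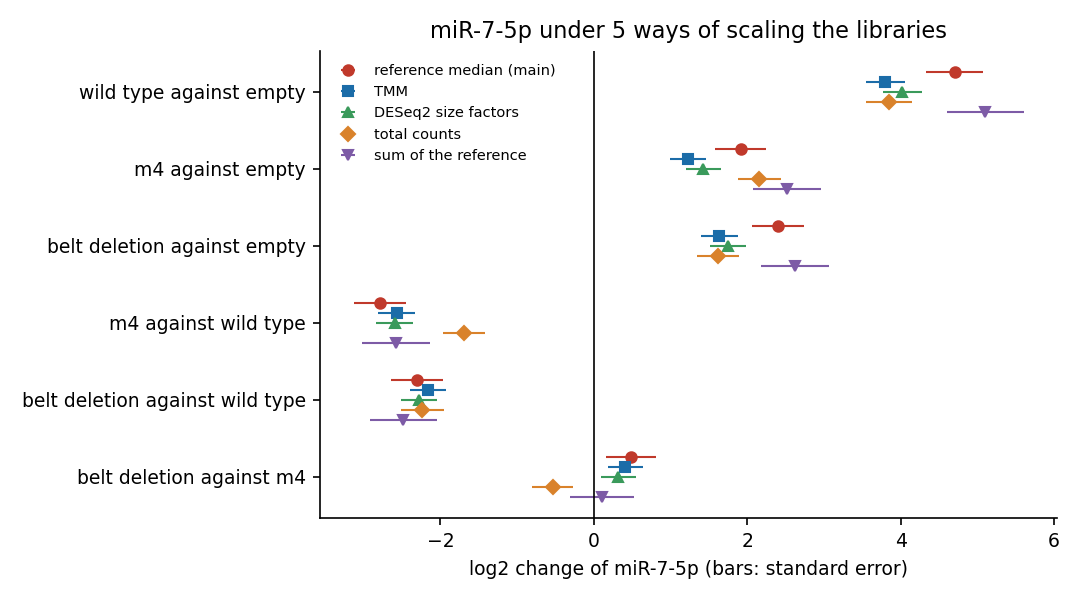
Log2 change of miR-7-5p (horizontal axis, bars are the standard error) in the 6 comparisons under 5 ways of scaling the libraries. The point for wild type against empty ranges from 3.80 to 5.10, the points for the belt deletion against wild type lie close together, and the belt deletion against m4 changes sign with total counts.

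Ratios within a library do not depend on any scaling, and those that follow were added after the values had been seen. miR-7-5p took 0.995%, 1.10% and 0.924% of the reads outside the reference miRNAs in the empty libraries and 4.66%, 4.26% and 3.97% in the wild type libraries. The shares were 2.38%, 2.23% and 2.67% with m4, and 0.941%, 0.999% and 1.01% with the belt deletion. The belt deletion libraries overlapped the empty libraries here (means 0.984% and 1.01%, exact two-sided permutation p = 0.9), whereas every m4 library was above both. With 3 libraries against 3 the smallest p such a test can give is 0.1, and adjustment over the 6 pairs of groups (Benjamini-Hochberg) raised the p of 0.1 to 0.12 for this share.

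miR-21-5p, an abundant miRNA of epithelial tumours, served as a second yardstick. It is not a constant one: its mean scaled reads were 2052 with empty, 80950 with wild type, 7446 with m4 and, for the belt deletion, 74877. The ratio to it therefore reflects changes of both miRNAs. Per 1000 reads of miR-21-5p there were 157, 168 and 144 reads of miR-7-5p with empty, 113, 92.8 and 106 with wild type, and 164, 155 and 166 with m4. With the belt deletion there were 20.7, 24.0 and 22.8. The ratio overlapped between m4 and empty (exact permutation p = 0.7), which does not show that it was equal. With wild type it was 1.50-fold lower than with empty. With the belt deletion it was a further 4.61-fold below wild type (exact permutation p = 0.1, the smallest possible). When miR-21-5p was left out of the total, the mean share of miR-7-5p was 1.08% with empty, 7.39% with wild type, 2.86% with m4 and, for the belt deletion, 1.75%, without overlap between any of the groups.

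The last ratio set miR-7-5p against the geometric mean of the 51 other miRNAs that rose with wild type and had at least 10 reads in every library. On the log2 scale it was 3.15 ± 0.108 with empty, 3.83 ± 0.203 with wild type, 2.98 ± 0.0659 with m4 and, for the belt deletion, 2.01 ± 0.116 (SD, n = 3). The groups did not overlap. Relative to these miRNAs, the wild type ratio exceeded that of m4 by 1.79-fold and that of the belt deletion by 3.52-fold. The exact permutation p was 0.1 for each, the smallest possible. The 51 were picked for their rise with wild type, and miR-7-5p was chosen with its own known. Comparisons with the wild type ratio are therefore not independent of those choices. The m4 ratio in turn exceeded that of the belt deletion by 1.96-fold, the reverse of the order of the mean scaled reads.

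**Figure D4:**
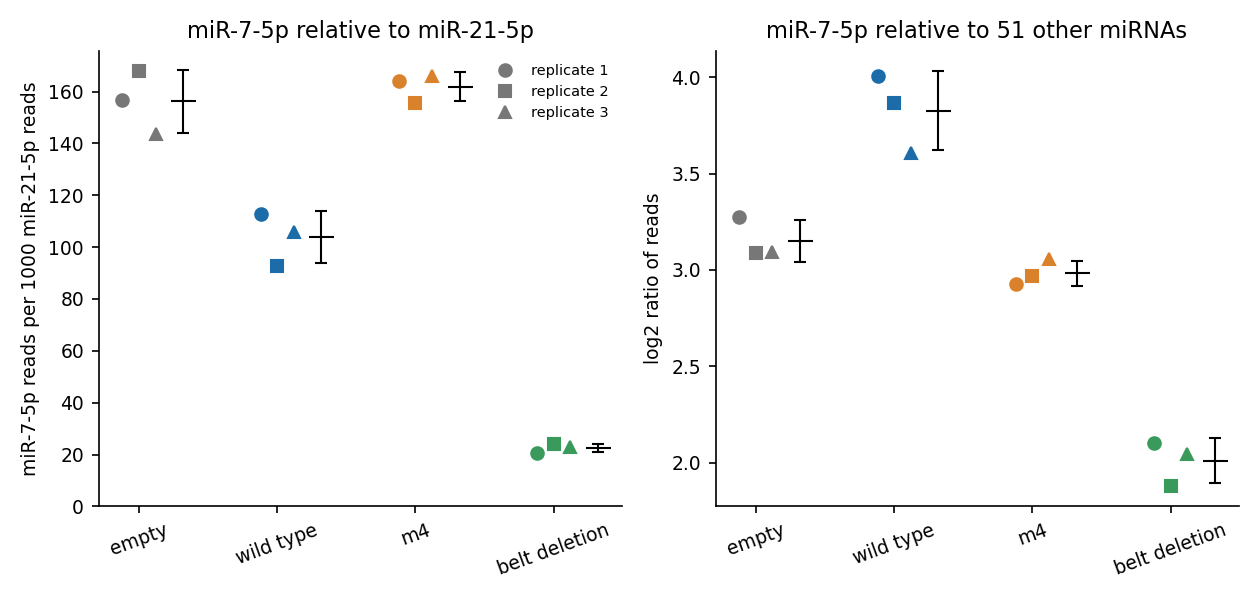
Left, reads of miR-7-5p per 1000 reads of miR-21-5p; right, log2 ratio of miR-7-5p to the geometric mean of 51 other miRNAs that rose with wild type. Symbols mark the replicates, bars the mean and SD (n = 3); the belt deletion libraries are the lowest in both panels, at 20.7 to 24.0 reads on the left and 1.88 to 2.11 on the right.

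The miRNAs nearest to miR-7-5p in pattern were found by the root mean square difference of log2(scaled reads + 1) over the 12 libraries, each miRNA centred on its own mean. Of 69 miRNAs with a mean of at least 100 scaled reads, the nearest were miR-30d-5p (0.310), let-7g-5p (0.371), miR-99b-5p (0.522), miR-151a-3p (0.589) and miR-221-3p (0.600), against a median of 1.45. The measure is a description, and all points share the same libraries and size factors. let-7g-5p, a member of the let-7 family of differentiation-linked miRNAs, had means of 54.6 scaled reads with empty, 1694 with wild type, 383 with m4 and, for the belt deletion, 417. Those of miR-30d-5p were 48.4, 1478, 169 and 295 in the same order. Since the 5 were picked for their likeness over these libraries, their changes are given without a test: for the belt deletion against wild type the log2 changes ran from -2.33 for miR-30d-5p to -1.37 for miR-151a-3p. For the belt deletion against m4 they were 2.08 for miR-151a-3p and 1.98 for miR-221-3p, beside 0.48 for miR-7-5p.

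**Figure D5:**
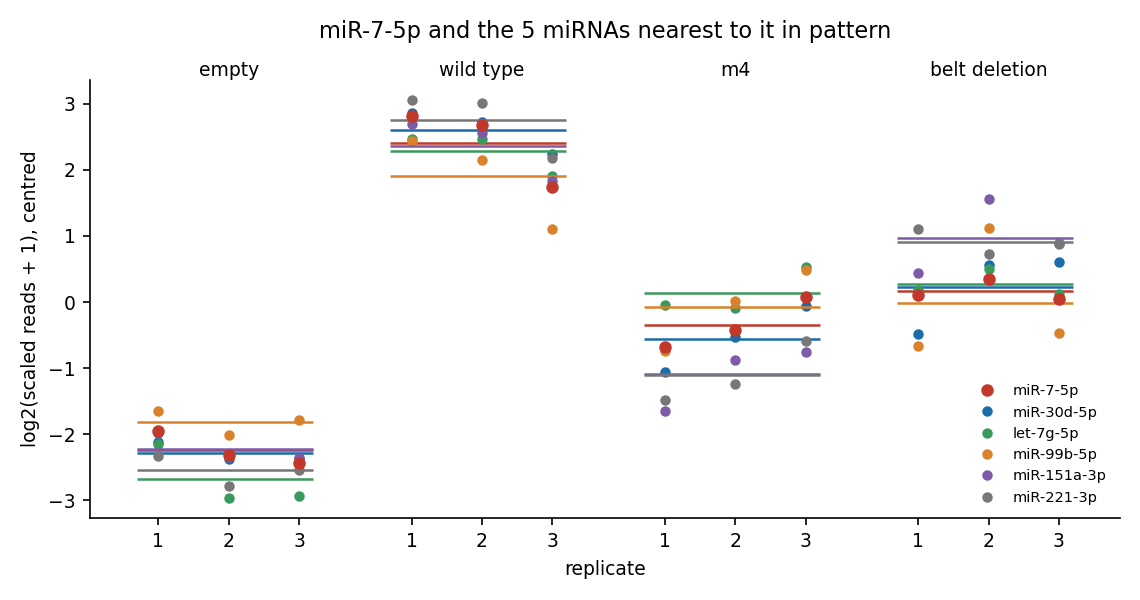
Centred log2(scaled reads + 1) of miR-7-5p (red) and the 5 miRNAs nearest in pattern, by plasmid and replicate; points are libraries and horizontal lines are means of 3 libraries. All 6 are highest with wild type and lowest with empty, and miR-151a-3p and miR-221-3p have the largest gap between m4 and the belt deletion.

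The miRNAs next to miR-7-5p in level with wild type behaved otherwise. let-7i-5p, which ranked 4, had 23505 ± 6803 scaled reads with wild type, 1170 ± 355 with m4 and, for the belt deletion, 20736 ± 2349. miR-10a-5p, which ranked 6 and is encoded in a HOX gene cluster, had 6219 ± 2201, 817 ± 220 and 5430 ± 1162. Their belt deletion level was 88.2% and 87.3% of the wild type level, against 20.2% for miR-7-5p. Neither was called different between the belt deletion and wild type (log2 changes -0.18 and -0.20, edgeR adjusted p = 0.764 and 0.747). The other neighbours, miR-320b of the reference list at rank 3 and miR-3615 at rank 7, were not called in any comparison.

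miR-671 belongs to the same circuit, since miR-671-5p cuts CDR1as. It was scarce, with 74 reads of miR-671-5p and 240 of miR-671-3p in all. Mean scaled reads of miR-671-3p were 5.28 with empty, 23.4 with wild type, 9.15 with m4 and, for the belt deletion, 45.2. Both arms rose with wild type and with the belt deletion, and neither was called with m4. Both were lower in the comparison of m4 with wild type. Over all tested miRNAs 42.6%, 42.9% and 41% were called higher over empty with wild type, the belt deletion and m4. For m4 against wild type 34.2% were lower. miR-671-5p had mean scaled reads of 0.70 with empty and 1.21 with m4, against 14.7 with wild type and 12.4 with the belt deletion. It could pass the filter only through the groups where it was high, so its calls are a description. For the belt deletion against wild type neither was called, at -0.22 for miR-671-5p and 0.96 for miR-671-3p (edgeR adjusted p = 0.845 and 0.143).

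Of 11 other miRNAs known from neurons and endocrine cells, 9 were in the table and 4 were tested. Wild type raised all 4 over empty (42.6% of all tested miRNAs were called higher there), with a median log2 change of 2.25. One of them, miR-129-5p, was at 0 in all empty libraries, so it could pass the filter through the other groups only. With the belt deletion 1 of the 4 was lower than with wild type, where 9.35% of all tested miRNAs were: miR-128-3p, at -1.39 (SE 0.383, edgeR adjusted p = 0.00507). The other 3, miR-375-3p, miR-9-5p and miR-129-5p, had log2 changes of 0.31, 0.06 and 1.30 and were not called. With wild type their levels were low beside that of miR-7-5p, from 6.10 scaled reads for miR-129-5p to 78.6 for miR-128-3p. miR-124-3p and miR-137-3p had no line in the table.

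A further list held 28 miRNAs in introns of protein-coding genes, the setting of MIR7-1, of which 27 were in the table and 21 were tested. All 21 rose over empty with each of the 3 DROSHA plasmids, and for m4 against wild type all 21 were lower. Over all tested miRNAs 42.6% were called higher for wild type, 41% for m4 and 42.9% for the belt deletion, and 34.2% were lower with m4 against wild type. The 7 untested members had few or no reads, and a member that passes the filter through the groups where it is high has to differ, so these counts are a description. The belt deletion against wild type divided them: 9 were lower and 1, miR-28-3p, was higher (log2 change 1.10), with a median of -0.66. Over all tested miRNAs 9.35% were called lower and the median was 0.04, but that base includes miRNAs that did not rise with wild type. Over the 131 others that rose with wild type, which include these 21, the median was -0.53, near that of the list. The lower ones ran from miR-26b-5p at -2.82 and miR-30e-5p at -2.26 to miR-93-5p at -1.14, and miR-26b-5p alone of the 21 had a more negative change than miR-7-5p.

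miR-7-5p was also 1 of 84 mature names listed under more than 1 hairpin. Of 80 other such miRNAs after merging, 35 were tested. For the belt deletion against wild type 3 of the 35 were lower, close to the 9.35% of all tested miRNAs, and 2 were higher. The median of the 35 was -0.52. miR-181b-5p, also made from several hairpins, was the 1 member with a more negative change than miR-7-5p, at -4.38 (SE 0.514). miR-92a-3p was at -1.48, and miR-548o-3p and miR-3158-3p were higher, at 2.62 and 2.03.

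The identity of the cells was checked on marker miRNAs. The 7 miRNAs of intestinal epithelium, miR-21-5p among them, were all in the table and summed to between 1849 and 2558 scaled reads with empty, 47458 and 102949 with wild type, 5831 and 9737 with m4, and 67847 and 79533 with the belt deletion. Nearly all of that was miR-21-5p, which many tissues express: without it the other 6 summed to between 68.9 and 91.8 with empty, 123 and 205 with wild type, 164 and 242 with m4, and 107 and 335 with the belt deletion. Of 12 markers of liver, vessels, muscle, neurons, blood and endocrine cells, 8 were in the table, and their sum ranged from 218 to 293 with empty, 486 to 714 with wild type, 332 to 635 with m4 and 584 to 791 with the belt deletion. In each group these sums lay above those of the 6 intestinal markers without miR-21-5p, and with wild type most of the sum was miR-126-3p (mean 393), an endothelial marker that lies in an intron of a protein-coding gene and is also on the intronic list. miR-124-3p, miR-223-3p, miR-142-3p and miR-133a-3p were not listed. The part of other cells in the level of miR-7-5p was not tested.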

How the data were processed

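The deposited table gives raw read counts for each mature strand of each hairpin in the 12 libraries. Per the submitters' processing notes, the authors used cutadapt, Bowtie2 and hg38, and the counter, miRNA annotation, strand use and treatment of multiple matches are not given in the sources used here. Blank cells (7220) were read as 0. The line with the most reads was kept for each mature name, and 9 pairs of names whose reads differed by at most 5 reads or 5% per library, over more than 120 reads, were merged. This left 101886 to 332081 reads per library. Size factors were median ratios over the 5 reference features that reached 20 reads in all libraries. edgeR 4.0.16 (robust quasi-likelihood F test, R 4.3.3) fitted all 12 libraries without covariates after filterByExpr, and a call is a Benjamini-Hochberg adjusted p under 0.05. The fit was tried on simulated counts for the belt deletion against empty, with the same dispersion for all miRNAs. It called 1.14% of 176 unchanged miRNAs. Of simulated log2 changes of size 1, 2 and 3 it called 10% (n = 10), 81.2% (n = 16) and 100% (n = 15), so small changes were mostly missed. Ratios were compared by exact permutation in scipy 1.17.1.

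The members, lists and tests were chosen with earlier results of these data known. Named miRNAs are miR-7 and its arms, members of the lists, the 5 most alike and the 4 neighbours in level. The alternatives were 4 other scalings, DESeq2 1.42.0, no filter, a replicate block, summed hairpin copies, fits of 2 groups and leaving out each library.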

Additional observations from a re-analysis of the deposited data

How the results depend on the processing

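All alternatives kept the direction and the side of the threshold of miR-7-5p for m4 against empty, the belt deletion against empty, m4 against wild type and the belt deletion against wild type, 15 alternatives each. For wild type against empty, described without a test, the log2 change moved by more than the pooled replicate SD of log2 scaled reads (0.45) with TMM scaling (3.80), DESeq2 size factors (4.02) and total counts (3.85). For the belt deletion against m4 it reversed with total counts (-0.54). Leaving out 1 library gave 4.51 to 4.96 for wild type against empty, 1.68 to 2.07 for m4 against empty, 2.30 to 2.55 for the belt deletion against empty, -3.05 to -2.59 for m4 against wild type, -2.57 to -2.11 for the belt deletion against wild type and 0.32 to 0.72 for the belt deletion against m4. With a replicate block the values were 4.69, 1.94, 2.40, -2.74, -2.29 and 0.46 in that order, and no call on miR-7-5p changed. Of 18 same-numbered pairs of libraries, 2 had deviations that correlated above 0.1, and 1 of 12 libraries correlated best with its own number. Counts of called miRNAs shifted with the scaling: 125 higher and 93 lower for wild type against empty with TMM (132 and 2 in the reported fit), 133 and 60 for m4 against wild type with total counts (11 and 106), and 47 and 121 for the belt deletion against m4 with total counts (80 and 4). The cause was not tested. miR-7-1-3p, with 1 read, did not pass the filter, so no fold change of it is given under any setting, and the share of 3p reads has no test that could change. The depth limits statements on the 3p arm, and the 5p reads cannot be divided among the hairpins.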
